A study of Mus musculus with 4 samples.

Results

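The genes described here are the Toll-like receptors, the adaptors and kinases beneath them, the NF-kB transcription factors with their inhibitors and outputs, and the genes of the inflammasome. A list of 42 mouse symbols was matched by gene name to a table of read counts, and 39 of the 13614 genes in the table were on it. Expression of Tlr8, Il6 and Cd40 was not analysed here. The measurement was RNA-seq on leukemia-initiating cells, as the study calls fetal liver cells of embryonic day 14.5 to 16.5 that carry a retroviral MLL-AF9 fusion and were sorted by the GFP of the same vector. All 4 libraries therefore share MLL-AF9, driven by the MSCV vector, and GFP, and differ by genotype: 2 are Prl2+/+ (wild type) and 2 are Prl2-/- (Prl2 knockout). Prl2 is Ptp4a2, the gene of the phosphatase PRL2. The labels give no strain and leave it unsaid whether each library is its own embryo, litter or culture. The p-values therefore measure only the spread between these libraries. For the knockout pair it may be technical, while the wild type pair differed in Xist and Ddx3y, genes whose levels depend on sex.

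Toll-like receptors bind molecules of microbes at the cell surface (Tlr1, Tlr2, Tlr4 and Tlr6) or in endosomes (Tlr7, Tlr9 and Tlr13). They signal through the adaptor MyD88 with the IRAK kinases, or through the adaptor TRIF, and the ubiquitin ligase TRAF6 to the IKK complex. That complex marks IkB inhibitors for degradation and so frees NF-kB dimers to enter the nucleus. NF-kB then induces cytokine genes and its own brakes, among them IkB alpha and A20. Inflammasomes such as the one built on NLRP3 and ASC activate caspase-1, which matures IL-1 beta and cleaves gasdermin D to form membrane pores. Myeloid progenitors and their mature progeny carry this machinery.

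Libraries held between 14625725 and 15422309 counts. Ptp4a2 had 4884 and 5105 counts in wild type libraries and 89 and 104 in knockout libraries, so the libraries matched their labels, and it was the 1 gene called by edgeR's quasi-likelihood test (log2 fold change -5.72, SE 0.143, adjusted p = 0.000429). Of 11 myeloid progenitor and blast markers, all were in the table, and Mpo, the myeloperoxidase of granulocyte precursors, lay between 561 and 3009 CPM, which is the read count scaled to library depth with TMM factors. The summed level of that list was 6725 and 12812 CPM in wild type libraries and 7338 and 4819 CPM in knockout libraries. All 9 neutrophil markers were in the table, with summed levels of 9873 and 12686 CPM in wild type libraries and 10904 and 11149 CPM in knockout libraries. Of 9 erythroid markers, 5 were in the table, all with a negative log2 fold change and none called. An unadjusted p under 0.05 by edgeR's quasi-likelihood test was found for 3, beside 9.89% of all genes. The genotypes did not overlap in CPM for 4, beside 44.2% of all genes. These included the globin gene Hbb-bs, with 116 and 62 counts in wild type libraries and 16 and 14 in knockout libraries. Hepatocyte markers had 0 of 4 genes in the table. B cell markers had 2 of 7, with a summed level of 64.8 to 88.9 CPM that was nearly all Cd79b, and T and NK cell markers 2 of 8, with 1.83 to 4.98 CPM.

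Of 15 monocyte and macrophage markers, 8 were in the table, with summed levels of 2065 and 2306 CPM in wild type libraries and 2511 and 2734 CPM in knockout libraries. Most of each sum was Ly6c2, at 1470 and 1669 CPM in wild type libraries and 1573 and 1522 CPM in knockout libraries. The log2 fold change of Ly6c2 was -0.02. Of the 8, 3 had a positive and 5 a negative log2 fold change. None was called by edgeR's quasi-likelihood test, and 4 had an unadjusted p under 0.05, beside 9.89% of all genes. Of these, the chemokine receptors Ccr2 and Cx3cr1 and the growth factor receptor Csf1r had log2 fold changes of -0.96, -1.26 and -0.50, and the adhesion molecule Vcam1 had 2.65. Adgre1, also higher in both knockout libraries, had a log2 fold change of 0.68. Mean levels of Vcam1 and Adgre1 were 67.9 and 268 CPM in wild type libraries and 426 and 430 CPM in knockout libraries. The groups did not overlap in 6 of the 8 markers, the 4 at an unadjusted p under 0.05 included, beside 44.2% of all genes. Monocytes and macrophages also express the pathway described here, and the part of these differences in the values of its genes was not tested.

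The cells expressed the pathway from receptor to effector, and no member was called between genotypes. Levels per length, in CPM per kb of the gene length given in the table and averaged over the 2 genotypes, were highest for Nfkbia at 99.7, Gsdmd at 87.7, Irak1 at 56.3, Rela at 46.6 and Tnip1 at 40.6. Nfkbia, the gene of IkB alpha, stood at the percentile 96.6 of all genes in the table. The lowest were the inflammatory outputs Ptgs2 at 0.453 and Il1b at 0.470 CPM per kb. The receptors lay between 1.00 and 10.5 CPM per kb, and all 8 adaptors and kinases between 6.38 and 56.3.

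**Figure D1:**
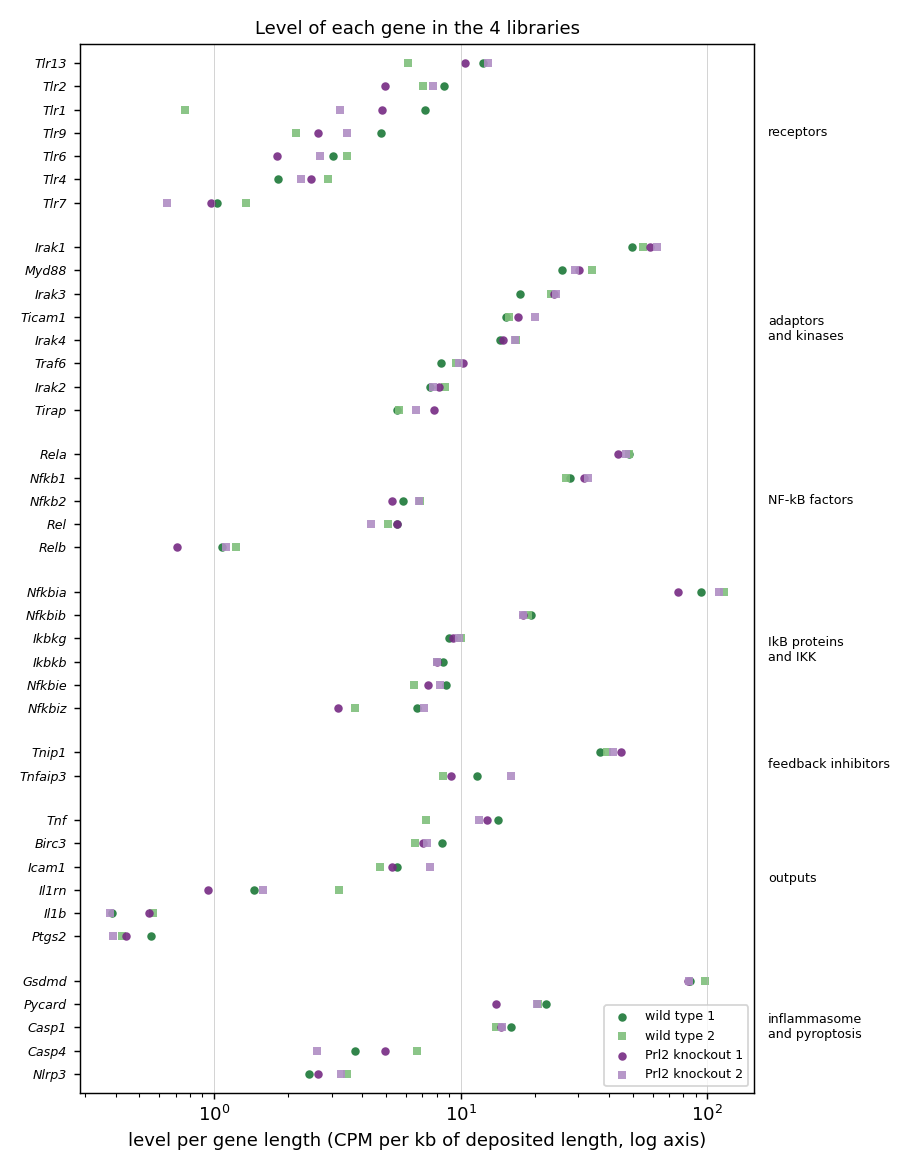
Level of each gene in each of the 4 libraries, in CPM per kb of deposited gene length on a log axis, grouped by role and ordered by mean level within a role. Points are single libraries (green wild type, purple Prl2 knockout). Nfkbia and Gsdmd lead with means of 99.7 and 87.7, while Il1b and Ptgs2 lie below 1, and Tlr1 in wild type replicate 2 stands far to the left of its other points.

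By edgeR's quasi-likelihood test, adjusted over all genes by the Benjamini-Hochberg method, 0 members were called higher and 0 lower, where 0% and 0.00735% of all genes were. At an unadjusted p under 0.05 there were 2 members, both higher, or 5.13%. Of all genes 9.89% were, with 5.66% higher and 4.23% lower. DESeq2, limma-voom and likelihood ratio testing in edgeR each called 0 members, with 1, 1 and 0 at an unadjusted p under 0.05. In the authors' deposited table the smallest adjusted p of a member was 0.861, for Il1rn. Of the 39 members, 17 had a positive and 22 a negative log2 fold change, with a median of -0.03 beside -0.0059 over all genes tested. A positive one was found in 49.1% of all genes. The groups did not overlap in CPM for 13 members, or 33.3%, beside 44.2% of all genes.

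The intervals give the size of difference that remained possible. For 26 of 39 members, or 66.7%, the 95% interval of the log2 fold change lay within 1 in either direction, that is within a doubling or halving, as it did for 65.6% of all genes. These included all 8 adaptors and kinases, 4 of 5 NF-kB factors and 5 of 6 IkB and IKK genes, but 2 of 7 receptors and 2 of 6 outputs. A member outside that limit was not shown to change or to stay the same.

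**Figure D2:**
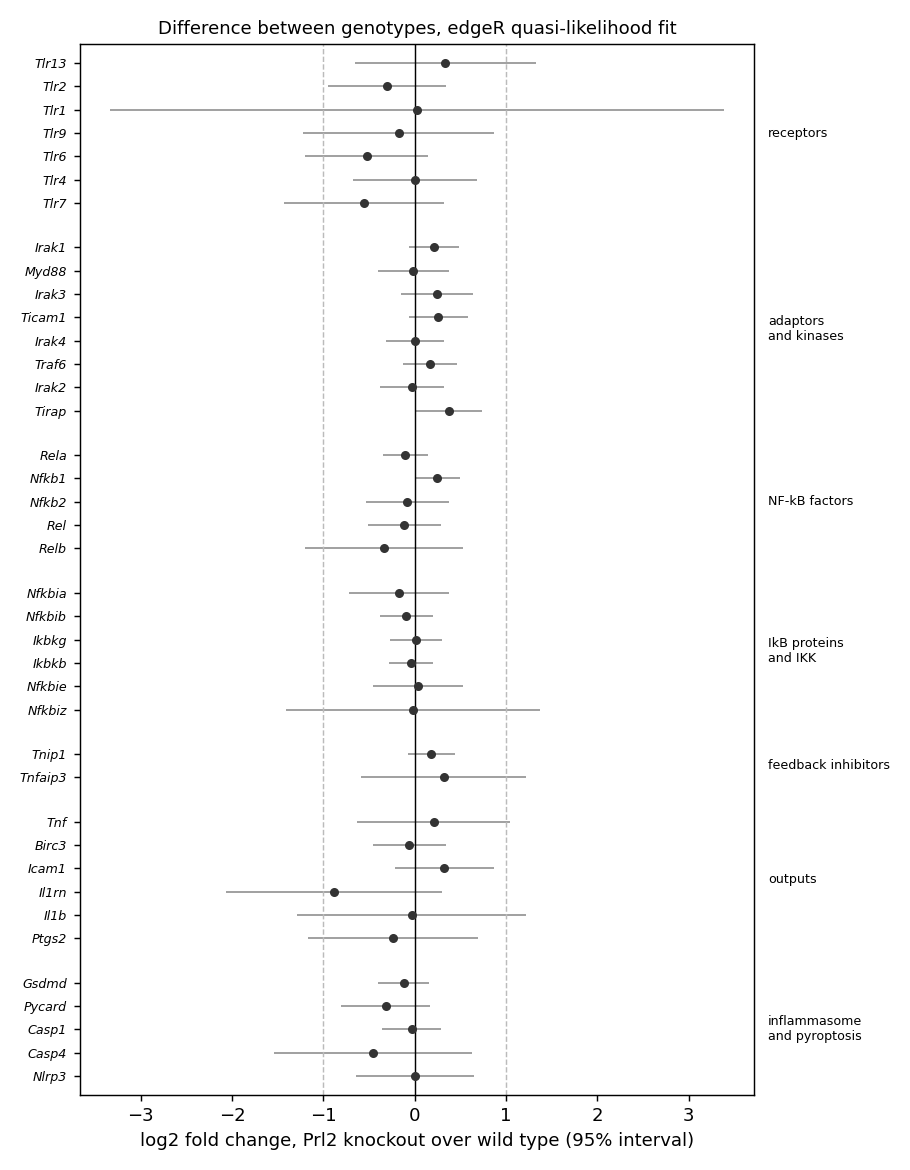
Log2 fold change of each gene, Prl2 knockout over wild type, with its 95% interval from the edgeR quasi-likelihood fit, in the order of the plot of levels. The dashed lines mark 1 and -1. Intervals are narrow for the adaptors, kinases, Nfkbib and the IKK genes. They are wide for Tlr1, from -3.33 to 3.38, and for the IkB gene Nfkbiz, from -1.40 to 1.37.

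Of the 7 receptors, the fold change was positive in 3 and negative in 4. Tlr13, the mouse receptor of bacterial ribosomal RNA, was the most abundant per length. It had 795 and 393 counts in wild type libraries and 688 and 842 in knockout libraries. The wild type libraries lay on both sides of knockout replicate 1, and the groups overlapped. In CPM this was 39.8 ± 18.9 against 50.3 ± 7.49 (SD, n = 2 per genotype), giving a log2 change of 0.34 (SE 0.368, edgeR adjusted p = 0.789). Tlr1, the partner of TLR2 in sensing triacylated lipopeptides, varied most between replicates. It gave 358 and 38 counts in wild type libraries and 246 and 165 in knockout libraries, so the wild type libraries enclosed both knockout libraries. Their CPM values, 23.9 and 2.56, differed by 9.36-fold, the only member with a difference of over 4-fold between libraries of 1 genotype. The log2 fold change of Tlr1 was 0.03 (SE 1.13, edgeR adjusted p = 0.996). Without wild type replicate 1 it was 2.38 and without wild type replicate 2 it was -0.83, and limma-voom gave 0.75.

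Other genes were also highest in wild type replicate 1 and lowest in wild type replicate 2. Flt3, a receptor kinase of progenitors and dendritic cells, was at 303 and 44.0 CPM in wild type libraries and 68.2 and 118 CPM in knockout libraries. Itgax, which encodes CD11c of dendritic cells, was at 29.6 and 1.01 CPM in wild type libraries and 3.60 and 5.55 CPM in knockout libraries. Cd34, a progenitor marker, had the same order, at 414 and 171 CPM in wild type libraries and 242 and 272 CPM in knockout libraries. Of 5 dendritic cell markers, 3 were in the table. Their summed levels, nearly all Flt3, were 334 and 45.9 CPM in wild type libraries and 72.6 and 124 CPM in knockout libraries. Xcr1, also on that list, was at 1.34 and 0.876 CPM in wild type libraries and 0.720 and 0.462 CPM in knockout libraries. The part of these genes in the spread of Tlr1 was not tested. In bulk RNA fewer cells of a type and less RNA per cell cannot be told apart. Flt3, Itgax and Cd34 were in the marker lists and were singled out after their values were seen.

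Tlr6, the partner of TLR2 for diacylated lipopeptides, lies 18468 bp from Tlr1 on chromosome 5 (mm10, 64952031 to 64960097, minus strand). The table held 169 and 191 counts in wild type libraries and 103 and 152 in knockout libraries, and the groups did not overlap. Tlr6 had a log2 fold change of -0.53 (SE 0.270, 95% interval -1.20 to 0.14, edgeR adjusted p = 0.560), and of -0.27 and -0.84 without knockout replicate 1 and 2 in turn. Tlr1 and Tlr6 are near copies in part: 10.3% of the 75-base words in Tlr1 transcripts also occur in Tlr6, and 9.25% of those in Tlr6 occur in Tlr1, so reads there are uncertain. Tlr7, the endosomal sensor of single-stranded RNA, had 63 and 82 counts against 61 and 40, with a log2 fold change of -0.55 (SE 0.353, edgeR adjusted p = 0.625). It too had no overlap. Tlr2, the surface receptor of bacterial lipoproteins, had 386 and 315 counts in wild type libraries and 227 and 354 in knockout libraries, with the knockout libraries on both sides of wild type replicate 2 (log2 fold change -0.30, SE 0.260). Without knockout replicate 1 the value for Tlr2 was -0.0083, and without knockout replicate 2 it was -0.66. Tlr9, the sensor of unmethylated CpG DNA, had 247 and 111 counts against 140 and 183, with the higher wild type library the same as for Tlr1 and Tlr13. Tlr4, the receptor of lipopolysaccharide, had 151 and 239 counts against 210 and 189, and its interval ran from -0.68 to 0.68.

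The adaptors and kinases varied less. The fold change was positive in 6 of 8, the median being 0.19 on the log2 scale, and for 5 of 8 both knockout libraries lay above both wild type libraries, beside 22.2% of all genes. None was called. Irak1, the kinase that binds MyD88 complexes and is then degraded, was the most abundant. It had 3486 and 3835 counts in wild type libraries and 4205 and 4483 in knockout libraries. In CPM it was at 246 ± 17.8 in wild type libraries and 286 ± 14.8 in knockout libraries (SD, n = 2 per genotype), giving a log2 change of 0.22 (SE 0.110, edgeR adjusted p = 0.558). Tirap, the bridging adaptor that brings MyD88 to TLR2 and TLR4, had 406 and 411 counts in wild type libraries and 587 and 493 in knockout libraries. Every knockout value was above the wild type. It was at 27.4 ± 0.373 CPM against 35.5 ± 4.13 CPM (SD, n = 2 per genotype), with a log2 fold change of 0.37 (SE 0.147, 95% interval 0.0073 to 0.74). Its p was 0.0468 and its edgeR quasi-likelihood adjusted p was 0.502. After each library's trend on gene length was removed, the log2 fold change of Tirap was 0.34. The 95% interval was then -0.022 to 0.69 (edgeR adjusted p = 0.646).

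Ticam1, the gene of the adaptor TRIF, was at 45.7 and 47.0 CPM in wild type libraries and 51.1 and 60.0 CPM in knockout libraries. Irak3, an IRAK that restrains signalling, was at 64.1 and 85.8 CPM against 88.1 and 89.4 CPM, so wild type replicate 1 alone was far below the others. Without wild type replicate 1 the log2 fold change of Irak3 was 0.04, against 0.24 over all libraries. Traf6, the ubiquitin ligase, was at 65.8 and 75.4 CPM against 80.7 and 77.8 CPM. The central adaptor Myd88, at 66.3 and 87.9 CPM in wild type libraries, enclosed its knockout values of 77.6 and 75.2 CPM. Irak4, the kinase that phosphorylates IRAK1, and Irak2 had log2 fold changes of 0.0084 and -0.03, with intervals of -0.31 to 0.33 and -0.38 to 0.32.

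Of the 5 NF-kB genes, 1 had a positive fold change. Nfkb1, which encodes p105 and its product p50, lies on chromosome 3 (mm10, 135584655 to 135691547, minus strand). It had 4990 and 4769 counts in wild type libraries and 5856 and 5995 in knockout libraries, with both knockout libraries higher. This was 327 ± 8.87 CPM against 389.5 ± 9.05 CPM (SD, n = 2 per genotype), giving a log2 change of 0.25 (SE 0.101, 95% interval 0.00075 to 0.50). Its p was 0.0495 and its edgeR quasi-likelihood adjusted p was 0.505. Nfkb1 is long in the table, at 12061 bp, and after each library's trend on gene length was removed its log2 fold change was 0.10 (edgeR adjusted p = 0.814).

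Rela, the p65 subunit that carries the transactivation domain, went the other way in value. Counts of Rela were 2218 and 2197 in wild type libraries and 2033 and 2168 in knockout libraries. The wild type libraries were nearly equal at 148 CPM each and both above the knockout, which was at 138 ± 7.19 CPM (SD, n = 2). For Rela the log2 fold change was -0.10 (SE 0.0995, 95% interval -0.35 to 0.14). Rel, the lymphoid and myeloid subunit c-Rel, was at 41.4 and 37.9 CPM against 41.1 and 32.3 CPM. Nfkb2 of the alternative pathway, which encodes p100 and p52, had 6.18 CPM per kb, below Rela at 46.6 and above Rel at 5.11. Relb, its partner, was the lowest NF-kB gene, at 1.04 CPM per kb. It had 63 and 71 counts in wild type libraries against 42 and 66 in knockout libraries.

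IkB proteins hold NF-kB in the cytoplasm. Nfkbia lies on chromosome 12 (mm10, 55489410 to 55492647, minus strand). Nfkbia had 2276 and 2785 counts in wild type libraries and 1871 and 2719 in knockout libraries. The wild type libraries enclosed knockout replicate 2, and knockout replicate 1 was the lowest of the 4. In CPM this was 169.9 ± 24.99 against 151 ± 40.4 (SD, n = 2 per genotype), giving a log2 change of -0.17 (SE 0.216, edgeR adjusted p = 0.817). Nfkbib, the gene of IkB beta, hardly varied within a genotype, at 41.9 and 40.7 CPM in wild type libraries and 38.7 and 38.9 CPM in knockout libraries. Nfkbie, the gene of IkB epsilon, was at 26.5 and 19.7 CPM against 22.4 and 25.03 CPM. Nfkbiz, the nuclear and inducible IkB zeta, was the member with the largest spread between knockout libraries, at 16.0 and 35.6 CPM beside 33.4 and 18.8 CPM in wild type libraries. The 2 knockout libraries differed by 2.23-fold, and it was the 1 member of 39, or 2.56%, whose knockout libraries differed by over 2-fold, beside 7.27% of all genes. The IKK genes were steady. Ikbkb, the catalytic subunit IKK beta, was at 161 and 153 CPM in wild type libraries and 154 and 153 CPM in knockout libraries. Ikbkg, the scaffold NEMO, was at 72.9 and 81.2 CPM against 75.7 and 80.2 CPM.

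The feedback inhibitors are induced by NF-kB and shut it off. Tnip1, which encodes the A20 partner ABIN1, had 1950 and 2061 counts in wild type libraries and 2422 and 2229 in knockout libraries. Both knockout libraries were above both wild type libraries, at 153 ± 7.95 CPM against 135 ± 5.93 CPM (SD, n = 2 per genotype). Tnip1 had a log2 fold change of 0.18 (SE 0.103, edgeR adjusted p = 0.582). Tnfaip3, which encodes the ubiquitin-editing enzyme A20, was at 84.5 and 61.5 CPM in wild type libraries and 65.9 and 116 CPM in knockout libraries. Knockout replicate 2 stood above the other 3 libraries. In that replicate Nfkbia, Nfkbiz, Tnfaip3 and the adhesion gene Icam1 were above knockout replicate 1. Tnip1, Tnf, Rel, Ptgs2, Il1b and Casp4 were lower in knockout replicate 2 than in knockout replicate 1. Over all members 25 were higher in knockout replicate 2 and 14 in knockout replicate 1, and the share over all genes was not taken.

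The 4 promoters that follow belong to the brakes of the pathway in which a consensus NF-kB motif was found, and are shown because NF-kB is known to act on such genes. Each window spans a RefSeq start site (GRCm38.p6) and is written 5′ to 3′ on the gene's strand, with matches to the NF-kB consensus on either strand in capitals. Overlapping matches make a longer run of capitals.
Nfkbia (chr12:55492598-55492897, minus strand): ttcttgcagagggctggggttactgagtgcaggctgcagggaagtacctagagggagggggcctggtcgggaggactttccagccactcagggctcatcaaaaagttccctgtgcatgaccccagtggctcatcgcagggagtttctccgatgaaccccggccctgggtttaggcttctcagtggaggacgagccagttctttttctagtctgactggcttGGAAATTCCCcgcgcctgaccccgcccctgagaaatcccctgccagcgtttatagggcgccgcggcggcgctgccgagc
Nfkbie (chr17:45555450-45555749, plus strand): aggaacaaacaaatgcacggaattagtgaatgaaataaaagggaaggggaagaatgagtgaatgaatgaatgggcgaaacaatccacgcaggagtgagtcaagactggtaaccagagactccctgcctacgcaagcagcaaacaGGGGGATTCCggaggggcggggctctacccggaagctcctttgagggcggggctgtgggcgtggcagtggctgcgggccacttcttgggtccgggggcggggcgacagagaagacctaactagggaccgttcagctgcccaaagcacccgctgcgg
Tnfaip3 (chr10:19015361-19015660, minus strand): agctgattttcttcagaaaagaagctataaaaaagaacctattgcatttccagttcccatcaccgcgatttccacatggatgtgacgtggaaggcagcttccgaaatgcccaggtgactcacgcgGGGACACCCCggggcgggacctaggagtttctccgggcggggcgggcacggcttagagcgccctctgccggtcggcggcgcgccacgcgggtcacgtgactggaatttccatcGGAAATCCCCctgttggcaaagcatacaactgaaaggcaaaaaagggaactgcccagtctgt
Tnip1 (chr11:54962891-54963190, minus strand): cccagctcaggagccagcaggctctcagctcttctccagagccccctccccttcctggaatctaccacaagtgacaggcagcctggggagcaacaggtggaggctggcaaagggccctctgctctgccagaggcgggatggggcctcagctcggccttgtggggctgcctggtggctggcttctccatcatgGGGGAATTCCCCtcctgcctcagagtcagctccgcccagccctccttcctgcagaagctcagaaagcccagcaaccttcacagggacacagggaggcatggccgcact

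In these windows the match in Nfkbia begins 29 bases before the start site and the 2 matches in Tnfaip3 begin 125 and 12 bases before it. Those of Tnip1 overlap each other, from 58 bases before the start, and the match in Nfkbie begins 106 bases before it. RefSeq promoters were given for 34 of the 42 listed symbols, as 49 windows. The consensus was present in 15 of the 49, or 30.6%, and in 8.46% of all 32851 promoters of the same length. The 15 windows belonged to 11 genes, and those of Casp4, Irak1 and Nfkb2 counted some sites more than once. The list was chosen to hold outputs and brakes of NF-kB, so the comparison of these shares is not a test. Beside the 4 genes printed, the windows with a match were those of Casp4, Il6, Irak1, Nfkb2, Nlrp3, Rel and Tlr2. A match describes the letters in the window and is not evidence of binding in these cells.

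The outputs were low apart from Tnf, Birc3 and Icam1, and 0 of 6 had groups without overlap, beside 44.2% of all genes. Tnf, the cytokine TNF, was the most abundant per length, with 346 and 176 counts in wild type libraries and 320 and 295 in knockout libraries. Wild type replicate 1 was the highest and wild type replicate 2 the lowest of the 4. In CPM this was 17.5 ± 7.98 against 20.2 ± 1.03 (SD, n = 2 per genotype), giving a log2 change of 0.21 (SE 0.333, edgeR adjusted p = 0.860). Il1rn, the IL-1 receptor antagonist, had the most negative fold change of the members. It was counted 121 and 264 times in wild type libraries and 80 and 133 in knockout libraries. Wild type replicate 2 was far above the other 3 libraries and the groups overlapped. The log2 fold change was -0.88 (SE 0.466, 95% interval -2.07 to 0.30, edgeR adjusted p = 0.575), and -0.21 without wild type replicate 2. Icam1, the ligand of leukocyte integrins, was at 24.1 and 20.5 CPM against 23.0 and 32.8 CPM. Birc3, which encodes the ubiquitin ligase cIAP2, was at 42.1 and 32.7 CPM against 35.1 and 36.7 CPM. Ptgs2, the inducible cyclooxygenase, had 27 to 38 counts in a library, and Il1b had 11 and 16 counts in wild type libraries and 16 and 11 in knockout libraries. The interval of Il1b, -1.28 to 1.22, includes a doubling and a halving.

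The inflammasome and pyroptosis genes lay between 2.96 and 87.7 CPM per kb. Gsdmd, the pore-forming gasdermin D, lies on chromosome 15 (mm10, 75862327 to 75867408, plus strand). It had 3018 and 3455 counts in wild type libraries and 3045 and 3034 in knockout libraries. Both knockout libraries were below the wild type in CPM, but wild type replicate 1, at 202 CPM, was close to their 199 and 200.4 CPM. Gsdmd had a log2 fold change of -0.12 (SE 0.113, 95% interval -0.40 to 0.16, edgeR adjusted p = 0.739). Pycard, which encodes the adaptor ASC, was at 84.4 and 78.5 CPM in wild type libraries and 53.1 and 77.6 CPM in knockout libraries. Knockout replicate 1 alone was low. The log2 fold change of Pycard was -0.32 (SE 0.195), and -0.07 without Prl2 knockout replicate 1. Casp1, the IL-1 beta converting protease, was at 50.4 and 43.5 CPM against 45.7 and 46.1 CPM. Casp4, the mouse caspase-11 that senses cytosolic lipopolysaccharide, lies 1538 bp from Casp1 on chromosome 9 and varied far more, at 13.9 and 24.6 CPM in wild type libraries and 18.3 and 9.71 CPM in knockout libraries. Nlrp3, the sensor, was at 9.90 and 14.1 CPM against 10.7 and 13.3 CPM, with an interval of -0.64 to 0.65.

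**Figure D3:**
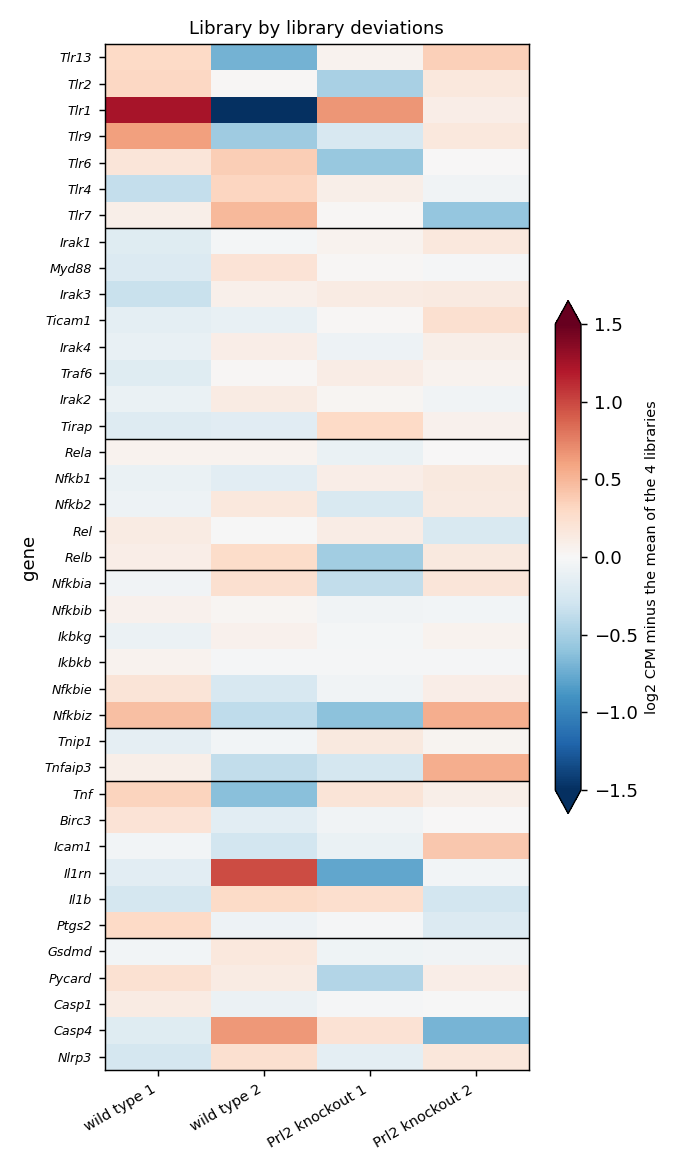
Log2 CPM of each gene in each library minus the mean of the 4 libraries, with red above and blue below. Lines part the roles. Among the strongest colours are those of Tlr1, Il1rn, Casp4 and Nfkbiz, which part libraries of the same genotype, while adaptors, kinases and IKK genes are pale.

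For 26 of the 39 members the 2 wild type libraries differed by more, on the log2 scale, than the genotype means did, beside 55% of all genes. The 2 knockout libraries did so for 24 of 39, beside 49.5% of all genes. Tlr1, Tlr9, Tlr13 and Il1rn were the 4 members, or 10.3%, whose wild type libraries differed by over 2-fold, beside 8.87% of all genes. Wild type replicate 1 was the higher for Tlr1, Tlr9 and Tlr13, and wild type replicate 2 for Il1rn. Mpo and Elane, the gene of neutrophil elastase, were also higher in wild type replicate 2, at 3009 and 2717 CPM against 1193 and 943 CPM in wild type replicate 1. In knockout replicates 1 and 2 Mpo was at 1189 and 561 CPM. Their part in the spread of Il1rn and Casp4 was not tested.

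On the X chromosome lie 4 members: Irak1, Ikbkg, Tlr7 and Tlr13. Xist, the RNA of the inactive X chromosome, was at 745 CPM in wild type replicate 1 and below 1 in the other 3 libraries. Ddx3y, a gene of the Y chromosome, was at 0.803 CPM there and between 77.5 and 86.4 CPM elsewhere. Irak1 and Ikbkg were lowest in wild type replicate 1. Without that library, their log2 fold changes were 0.13 and -0.07, against 0.22 and 0.02 over all libraries, and that of Tlr13 was 0.92 in place of 0.34. Tlr7 was not lowest in wild type replicate 1, and its log2 fold change was -0.75 without that library and -0.55 over all. None of the 4 was called, and which part of this goes with the X chromosome was not tested.

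A wider list of 90 genes of the same pathways, of which 78 were in the table, gave the same count of calls. In the quasi-likelihood fit 0 were called, with 8 at an unadjusted p under 0.05, or 10.3%, beside 9.89% of all genes. Of the 78, 27 had a positive and 51 a negative log2 fold change, with a median of -0.07. Over all genes 49.1% were positive and the median was -0.0059. The smallest p belonged to Ninj1, the membrane protein that ruptures the plasma membrane at the end of pyroptosis (mm10, chromosome 13, 49187485 to 49196244, plus strand). Ninj1 had 1130 and 1429 counts in wild type libraries and 774 and 720 in knockout libraries, with no overlap. It was at 85.9 ± 14.6 CPM against 49.1 ± 2.18 CPM (SD, n = 2 per genotype), giving a log2 change of -0.81 (SE 0.150, 95% interval -1.18 to -0.43). Its edgeR quasi-likelihood adjusted p was 0.474, while the authors' deposited table lists an adjusted p of 0.0445 for it and DESeq2 gave 0.0120. Over the alternatives to the quasi-likelihood fit, left-out libraries included, the adjusted p of Ninj1 ran from 0.0120 to 0.884 and the log2 fold change from -0.98 to -0.63. It was the 1 gene of the wider list at 0.05 or less in the authors' deposited table, where 0.477% of all genes are.

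The other 5 with the smallest p had the same edgeR adjusted p of 0.474. Naip2, a sensor protein of the NLRC4 inflammasome, had 1352 and 1651 counts in wild type libraries and 2206 and 2622 in knockout libraries. It belongs to a family of near copies, and 10.7% of its 75-base words occur in transcripts of other genes, so its counts are uncertain. The log2 fold change of Naip2 was 0.66 (SE 0.151). Malt1, the paracaspase that links antigen receptors to IKK, was at 61.9 and 55.2 CPM in wild type libraries and 78.4 and 82.9 CPM in knockout libraries. Its log2 fold change was 0.46, and 0.26 after the trend on gene length was removed. Ikbke, the IKK-related kinase of interferon induction, was at 52.2 and 72.7 CPM against 36.0 and 40.4 CPM. Ripk1, the kinase beneath the TNF receptor, was at 94.1 and 89.2 CPM against 112.5 and 125 CPM, and shares 5.24% of its words with the overlapping gene Gm17084. Ccl5, a chemokine, rested on few reads, with 14 and 42 counts in wild type libraries and 6 and 4 in knockout libraries. The log2 fold change of Ccl5 was -2.49 (SE 0.725), and -1.49 without wild type replicate 2. In all 5 the groups did not overlap, but these genes were picked by their p. Groups without overlap made up 46.2% of the wider list and 44.2% of all genes.

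**Figure D4:**
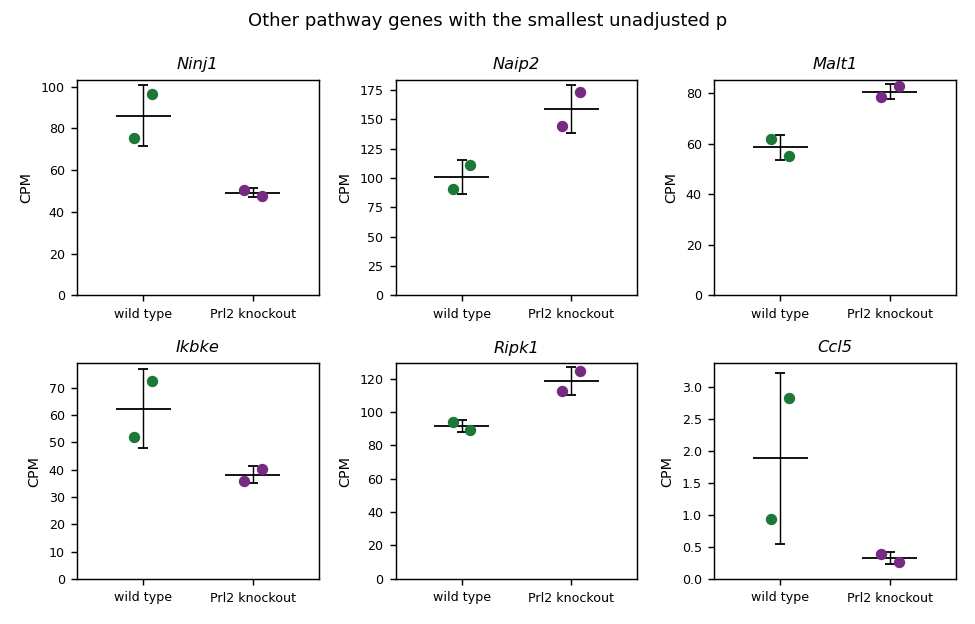
CPM of the 6 genes of the wider list with the smallest unadjusted p. Points are libraries (green wild type, purple Prl2 knockout), the long lines are means and the error bars SD with n = 2, on axes that start at 0. Ninj1, Ikbke and Ccl5 lie lower in both knockout libraries and Naip2, Malt1 and Ripk1 higher, each with an edgeR adjusted p of 0.474.

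Exons of some members overlap a gene on the opposite strand, and the strand setting of the counting is not given in the sources used here, so such reads cannot be told apart. The overlap was 14.5% of the length of Nfkbib, with Ccer2, 12.8% of Pycard, with Gm45205, 11.7% of Icam1, with Gm47079, 11.6% of Nfkb2, with AC114539.1, and 11.3% of Myd88, with Acaa1a. For Tirap it was 9.05%, with Gm39318. Nfkb2 also overlaps Psd, over 6.52% of its length. Birc3 shared 3.45% of its 75-base words with other genes.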

How the data were processed

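The data are 1 table of unnormalized read counts by gene and library, as deposited. The authors added their own log2 fold change of knockout over wild type. Per the file headers, each gene also carries their p-value, raw and adjusted, and a length. The submitters' processing notes name mm10, STAR, featureCounts and Bowtie2. For versions, roles and strand setting, the sources used here say nothing. Each of the 13614 genes had a CPM over 0.5 in at least 2 libraries, so the table had been filtered. The deposited p-values differed by at most 5.34e-10 from an edgeR likelihood ratio test with robust dispersion.

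Genotypes were compared on these counts in edgeR 4.0.16 under R 4.3.3 (TMM, filterByExpr, robust quasi-likelihood fit, genotype as the single term, two-sided, Benjamini-Hochberg over all genes, called at 0.05 or less), checked on simulated data. The SE is the fitted log2 fold change over the root of F. DESeq2 1.42.0 and limma 3.58.1 served as alternatives. The deposited gene length equals the merged exons of each member. Coordinates of 38 members were the same in GENCODE M21 (Casp1 differed). Members and lists were chosen with earlier results of these data known. Full values are given for members called, at an unadjusted p under 0.05, over 4-fold apart within a genotype, or most abundant per length in a role, and for the 6 other pathway genes with the smallest p. Replicates were not copies of each other: chi-square per gene was 33.8 between wild type libraries and 18.7 between knockout libraries.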

Additional observations from a re-analysis of the deposited data

How the results depend on the processing

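Members were called by none of the alternatives, which were DESeq2, limma-voom, edgeR's likelihood ratio test, RLE factors, no filter, a filter at a CPM of 1 in 2 libraries, the replicate block, removal of the length trend and each library left out in turn. DESeq2 gave no adjusted p for 1 member. Members at an unadjusted p under 0.05 numbered 0 to 4. The median of the members stayed between -0.06 and -0.0083. Over all genes DESeq2 called 46 higher and 46 lower, and the likelihood ratio test 25 and 40, of which 1 of the wider list, Ninj1, was lower (1 in each). With a library left out, calls ranged from 0 to 4 higher and from 0 to 4 lower. In these fits the lone library is assumed to vary like the other group.

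The sign held under every alternative for 19 members, 8 positive and 11 negative. With a library left out it changed for 20, whose log2 fold changes ran from -0.83 to 2.38 for Tlr1, -0.31 to 0.37 for Tlr4, -0.64 to 0.50 for Tlr9, -0.085 to 0.92 for Tlr13, -0.21 to 0.20 for Myd88, -0.14 to 0.076 for Irak2, -0.11 to 0.11 for Irak4, -0.27 to 0.093 for Nfkb2, -0.30 to 0.051 for Rel, -0.47 to 0.080 for Nfkbia, -0.17 to 0.26 for Nfkbie, -0.71 to 0.45 for Nfkbiz, -0.070 to 0.091 for Ikbkg, -0.15 to 0.67 for Tnfaip3, -0.20 to 0.76 for Tnf, -0.32 to 0.26 for Il1b, -0.23 to 0.12 for Birc3, -0.24 to 0.28 for Nlrp3, -0.14 to 0.066 for Casp1 and -0.99 to 0.0039 for Casp4. Others kept their sign but moved by over 1.5 times, running from -0.88 to -0.29 for Tlr7, 0.25 to 0.49 for Tirap, 0.14 to 0.37 for Ticam1, 0.13 to 0.29 for Irak1, 0.037 to 0.46 for Irak3, 0.060 to 0.26 for Traf6, -0.16 to -0.049 for Rela, -0.71 to -0.045 for Relb, -0.078 to -0.013 for Ikbkb, -1.35 to -0.21 for Il1rn, -0.42 to -0.047 for Ptgs2, 0.048 to 0.56 for Icam1, -0.62 to -0.069 for Pycard, -0.23 to -0.020 for Gsdmd, -0.94 to -0.45 for Ikbke and -3.09 to -1.49 for Ccl5. Tlr4 was at -0.0024 with RLE factors, -0.0015 with the CPM filter, -0.0024 by DESeq2 and -0.049 without the length trend. Myd88 was at 0.00037 by limma-voom. Without the length trend it was at 0.033, Irak4 at -0.029, Ikbkg at -0.097, Il1b at 0.057 and Nlrp3 at -0.00099. Ikbkb was then at -0.25, Traf6 at 0.055, Gsdmd at -0.063 and Nfkbib at -0.020. The cause was not tested. Over 9592 genes the replicate differences of the genotypes correlated at -0.17. This gave no sign that the titles' numbers pair the libraries, but 1 correlation cannot settle it and the labels leave it unsaid. The replicate block called 0 genes higher and 1 lower, and the crossed pairing, chosen after seeing the data, also 0 and 1.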
